A study of Mus musculus with 15 samples.

Results

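The genes described here are 10 well-known targets of the hypoxia response, Ak4, Bnip3, Egln3, Ankrd37, Car9, Vegfa, Slc2a1, Pdk1, Ldha and Pgk1, out of 54232 genes in the table of counts. They were listed by name to ask whether a fall of Ak4 at birth was shared by the other 9. Ak4 was chosen by its fitted fall from embryonic day 16.5 (E16.5) to birth (P0) in these same libraries, so that difference is a description and carries no test. All 10 passed the filter on low counts.

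The samples were secondary palates, the tissue that separates the mouth from the nasal cavity, of wild-type mice, dissected on every day from E13.5 through E16.5 and on the day of birth. There were 3 libraries per stage, and for each of them the palates of 3 embryos were combined before extraction. The strain and sex are not given in the sources used here, and all stages share the one genotype, so no group serves as a hypoxic or normoxic control. Summed transcripts of 4 Y-linked genes were 0.151 to 0.332 CPM in the E16.5 libraries, and 86.2, 0.457 and 129.6 CPM in P0 replicates 1, 2 and 3. Differences of any gene from E16.5 thus cannot be fully told apart from differences in the sex of the pools. Depth ranged from 21.5 M to 69.0 M counts per library with a median of 61.0 M. The level of 3 counts was 0.0435 to 0.140 CPM, the counts scaled to a common library total, and P0 replicate 3 was the shallowest library. Tests measure the spread between these pools, not between single embryos, and in whole tissue a smaller number of cells of a type and less RNA per cell cannot be told apart. Markers of palate mesenchyme (Pax9, Osr2, Msx1 and 6 others) were present in every library, with summed levels of 599 to 975 CPM at E13.5 and 261 to 403 CPM at P0.

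Cells adapt to low oxygen mainly through hypoxia-inducible factors (HIFs), dimers of an oxygen-regulated alpha subunit (Hif1a, Epas1 or Hif3a) with Arnt or Arnt2. In oxygen, prolyl hydroxylases of the Egln family mark the alpha subunit for destruction through Vhl. In low oxygen the dimer accumulates, binds short DNA elements with the core ACGTG or GCGTG, and raises genes for glucose uptake, glycolysis, blood vessel growth, acid balance and mitochondrial turnover. Several of the same genes also run at high levels in tissues with a large glycolytic demand, such as skeletal muscle.

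The promoters of 6 of the 10 genes are shown as examples that hold the letters of the HIF core. Ak4 was lower at P0, and Ankrd37 was called lower at P0 against E15.5 but not against E13.5. Bnip3, Egln3, Ldha and Pgk1 were called higher at P0 against E13.5. A link between the core and the direction was not tested. Each window is the stretch of the 250 bases before the most upstream RefSeq start (GRCm38.p6) that no annotated exon covers, printed in the gene's own direction, with ACGTG and GCGTG on either strand in capitals. A palindrome CACGTG holds ACGTG on both strands and counts as 2 matches, and neighbouring matches can overlap. Ak4 at chr4:101419039-101419276 (plus strand) had 0 ACGTG and 2 GCGTG. Ankrd37 at chr8:45999868-46000100 (minus strand) had 1 ACGTG and 2 overlapping GCGTG. Bnip3 at chr7:138909520-138909756 (minus strand) had 2 ACGTG and 3 GCGTG. Egln3 at chr12:54203875-54204124 (minus strand) had 1 ACGTG, Ldha at chr7:46845554-46845803 (plus strand) had 5, and Pgk1 at chrX:106186850-106187099 (plus strand) had 2.
Ak4: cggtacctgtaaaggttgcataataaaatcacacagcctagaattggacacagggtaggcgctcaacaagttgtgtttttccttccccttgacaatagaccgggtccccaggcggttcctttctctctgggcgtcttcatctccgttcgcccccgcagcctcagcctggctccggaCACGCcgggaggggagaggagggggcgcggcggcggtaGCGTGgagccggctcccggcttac
Ankrd37: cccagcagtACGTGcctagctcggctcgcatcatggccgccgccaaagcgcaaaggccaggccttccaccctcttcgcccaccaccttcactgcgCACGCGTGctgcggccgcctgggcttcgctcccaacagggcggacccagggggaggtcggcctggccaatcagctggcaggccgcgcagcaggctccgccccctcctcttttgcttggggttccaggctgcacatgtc
Bnip3: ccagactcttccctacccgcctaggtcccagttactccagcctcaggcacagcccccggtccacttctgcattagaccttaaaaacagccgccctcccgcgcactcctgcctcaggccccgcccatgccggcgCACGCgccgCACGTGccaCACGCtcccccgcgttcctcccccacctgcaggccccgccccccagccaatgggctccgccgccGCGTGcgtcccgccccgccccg
Egln3: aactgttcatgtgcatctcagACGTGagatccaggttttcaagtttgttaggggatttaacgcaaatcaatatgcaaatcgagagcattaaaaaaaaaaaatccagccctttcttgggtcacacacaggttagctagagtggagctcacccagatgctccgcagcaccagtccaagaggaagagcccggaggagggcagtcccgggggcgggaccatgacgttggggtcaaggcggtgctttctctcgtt
Ldha: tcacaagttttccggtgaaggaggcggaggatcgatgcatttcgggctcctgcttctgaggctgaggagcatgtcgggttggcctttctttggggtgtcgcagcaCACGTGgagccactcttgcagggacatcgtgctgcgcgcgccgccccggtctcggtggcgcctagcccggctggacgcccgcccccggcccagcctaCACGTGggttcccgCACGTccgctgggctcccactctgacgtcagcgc
Pgk1: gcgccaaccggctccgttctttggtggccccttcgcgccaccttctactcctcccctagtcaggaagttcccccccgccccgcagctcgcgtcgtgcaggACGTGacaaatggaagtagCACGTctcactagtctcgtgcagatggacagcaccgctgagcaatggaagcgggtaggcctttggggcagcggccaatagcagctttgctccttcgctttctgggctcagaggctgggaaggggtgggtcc
Over the full 250 bases, 7 of the 10 genes held ACGTG and 5 held GCGTG. Of the 27025 genes with such a window, 16.5% held ACGTG, 28.3% held GCGTG and 38.6% held either. Of the genes not shown, Slc2a1 held 1 of each, Car9 held 1 ACGTG, Pdk1 held 1 GCGTG and Vegfa held neither. These matches describe letters in a short window only.

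Ak4, an adenylate kinase of the mitochondrial matrix that transfers phosphate between nucleotides, lies at 4:101419277-101466995 on GRCm38 (ENSMUSG00000028527.18). It measured 18.6, 20.6 and 22.1 CPM at E13.5, 21.9, 22.5 and 27.2 at E14.5, 22.4, 19.8 and 26.3 at E15.5, and 18.04, 22.2 and 22.9 at E16.5. At P0 it measured 11.3, 8.66 and 11.1 CPM. The 12 embryonic libraries thus lay between 18.04 and 27.2 CPM, and all 3 P0 libraries lay below them. The mean fell from 21.1 ± 2.6 CPM (SD, n = 3) at E16.5 to 10.3 ± 1.5 at P0, a fitted log2 difference of -1.03 (SE 0.16), given as a description. Against E15.5 and E13.5, which share the P0 libraries that chose the gene, the log2 differences were -1.14 and -0.98, each with an SE of 0.16.

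In the embryonic libraries that did not enter that choice, a change of Ak4 was not detected. The log2 difference was 0.22 (SE 0.16) from E13.5 to E14.5, with an adjusted p of 0.543 in edgeR's quasi-likelihood test. From E14.5 to E15.5 it was -0.07 (SE 0.16, edgeR adjusted p = 0.793), and its sign turned to 0.06 with upper-quartile scaling. In these contrasts 0.00903% and 26.1% of all tested genes were called. With upper-quartile scaling the median of all genes from E14.5 to E15.5 moved from 0.030 to 0.161, and the split of calls moved from 2803 higher and 2970 lower to 3424 higher and 2007 lower.

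Ankrd37, an ankyrin repeat protein at 8:45996902-46005707 (ENSMUSG00000050914.16), was the other gene of the 10 with every P0 library below every E16.5 library. It measured 5.25, 5.80 and 5.42 CPM at E13.5, 8.05, 7.17 and 5.77 at E14.5, 6.59, 8.77 and 9.68 at E15.5, 16.3, 10.7 and 8.42 at E16.5, and 3.41, 5.49 and 5.36 at P0. Its mean was highest at E16.5. At P0, replicates 2 and 3 lay within the range of E13.5 and replicate 1 below it, whereas all P0 libraries of Ak4 lay below every embryonic one. Against E15.5 it fell by 0.81 on the log2 scale (SE 0.27), with an edgeR adjusted p of 0.0441. That call was lost with no filter on low counts (adjusted p = 0.0598) and in a fit of only the libraries of the contrast (0.108). It was also lost without any one of E15.5 replicates 2 and 3 and P0 replicates 1, 2 and 3, with adjusted p values from 0.0448 to 0.133 over the libraries left out. Against E13.5 the log2 difference was -0.21 (SE 0.27, edgeR adjusted p = 0.516), and without P0 replicate 1 it was 0.02. On the other strand Ufsp2 and Lrp2bp overlap Ankrd37, and the counting used strand.

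**Figure D1:**
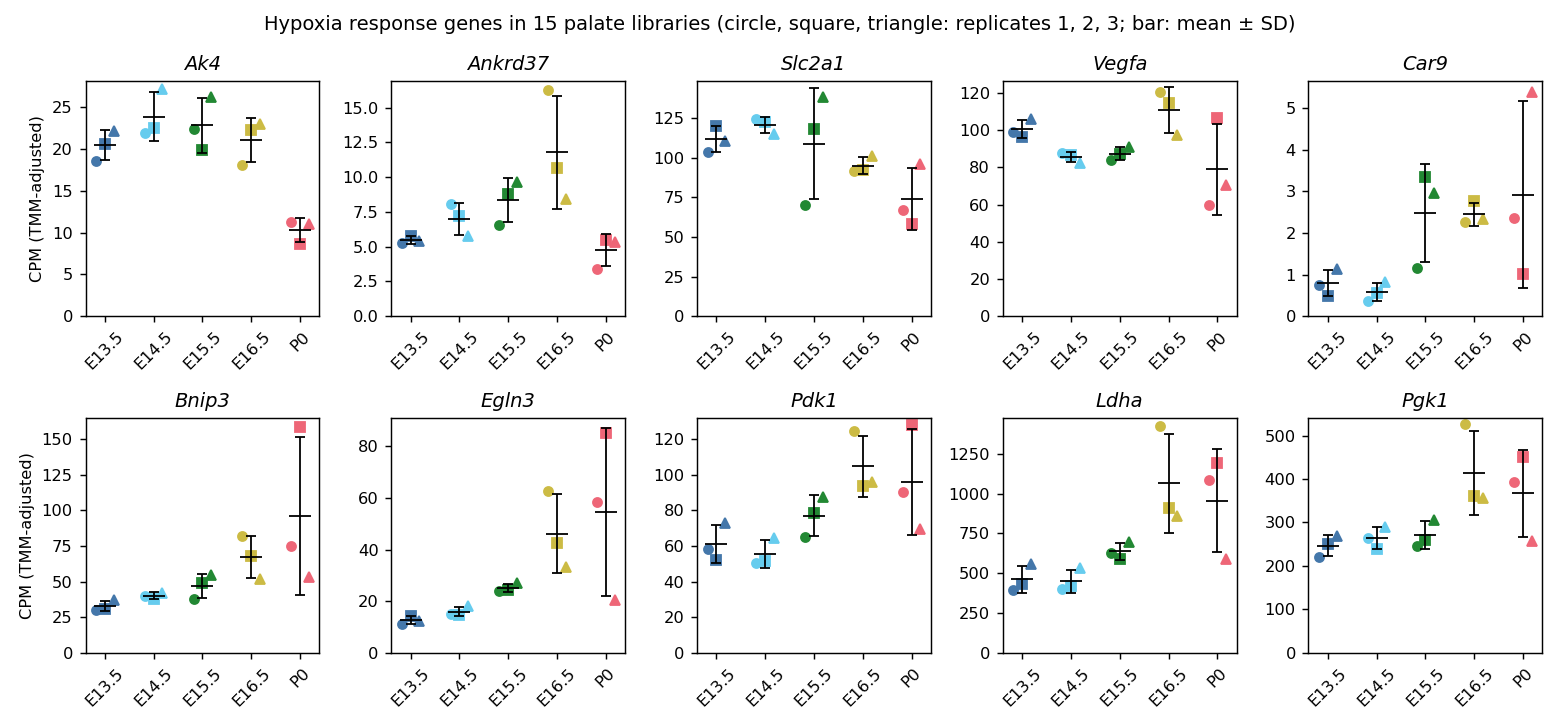
TMM-adjusted CPM of the 10 genes (vertical axes, each from 0) in each of the 15 libraries by stage (horizontal axes), with replicates 1, 2 and 3 as circle, square and triangle and a black bar for the mean ± SD of 3 libraries. Ak4 lies between 18.04 and 27.2 CPM until E16.5 and between 8.66 and 11.3 CPM at P0, while the 3 P0 libraries of Bnip3, Egln3, Pdk1, Ldha and Pgk1 spread widely.

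Across P0 against E16.5, the contrast that chose Ak4, 2 of the 10 genes (Ak4 and Ankrd37) had every P0 library below every E16.5 library, 0 had every P0 library above, and 8 overlapped. Of all tested genes, 5.39% separated downward and 6.23% upward in that way. By the fit, 1 of the 10, Ak4 itself, was called, against 0.352% of all tested genes, and 3 of the 10 had an unadjusted p under 0.05. DESeq2 called 2, Ak4 and Ankrd37. Nothing is read from these counts, since the contrast chose the list's first gene. Over all genes the calls split 42 higher and 36 lower, and 36 higher and 17 lower with upper-quartile scaling. The log2 differences of the other 9, as a description, were -1.31 (SE 0.27) for Ankrd37, -0.49 (SE 0.17) for Vegfa, -0.36 (SE 0.22) for Slc2a1, -0.17 for Pgk1, -0.16 for Ldha, -0.13 for Pdk1, 0.24 for Egln3, 0.24 for Car9 and 0.51 (SE 0.31) for Bnip3. The median over the 10 was -0.165, beside 0.000 over all tested genes. Leaving out single libraries turned the sign of Bnip3 and Egln3 (P0 replicate 2), Car9 (P0 replicate 3), and Pdk1, Ldha and Pgk1 (P0 replicate 3 or E16.5 replicate 1). Ak4, Ankrd37, Vegfa and Slc2a1 stayed below 0 in those fits. Without P0 replicate 2, Vegfa was at -0.78 and was the 1 called (edgeR adjusted p = 0.0301). Ak4 was at -0.93 in that fit and lost its call, as it did without E16.5 replicate 2 (-0.99) or 3 (-0.97). For Ak4 these values are a description, since the contrast chose it. Slc2a1 was at -0.60 without P0 replicate 3, and Vegfa at -0.32 without P0 replicate 1.

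Against E13.5, at the other end of the series, the remaining genes mostly went the opposite way to Ak4. Of the other 9, 6 were higher at P0 (Egln3, Car9, Bnip3, Ldha, Pdk1 and Pgk1), 1 was lower (Slc2a1), and 2 did not pass the test (Vegfa and Ankrd37). In this contrast 56.6% of all tested genes were called, 29.8% higher and 26.8% lower. The median log2 difference of the 10 was 0.611, beside 0.034 over all tested genes. With Ak4 the calls were 8 of 10, and 4 without E13.5 replicate 2 or 5 without E13.5 replicate 1. Between P0 and E15.5, 1 was higher (Bnip3), and Ankrd37 was lower together with Ak4, while the other 7 did not pass the test. There 22.9% of all tested genes were called, 12.2% higher and 10.8% lower. With Ak4 the calls there were 3 of 10, and 6 without P0 replicate 3. Only 1 was called without E15.5 replicate 2 or 3, with no filter or with only the libraries of the contrast. In each of those settings the 1 gene was Ak4 itself, so none of the other 9 was called. Both contrasts share the P0 libraries.

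**Figure D2:**
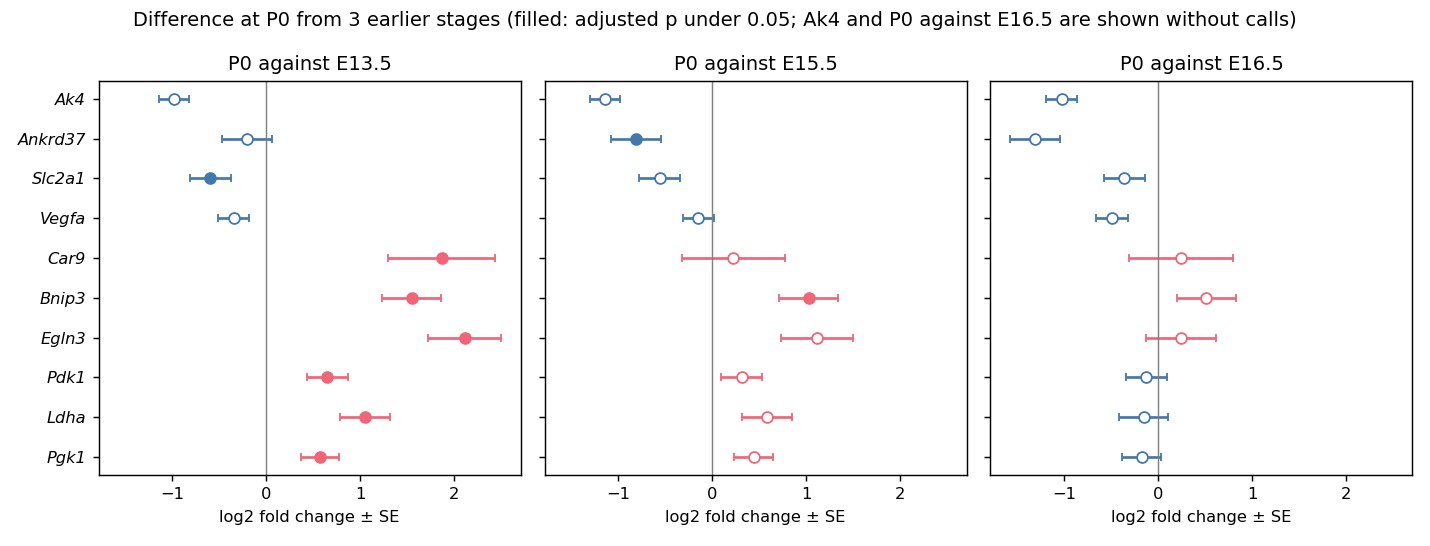
Fitted log2 fold change ± SE (horizontal axes) of the 10 genes (rows) at P0 against E13.5, E15.5 and E16.5, blue below 0 and red above. Filled points have an edgeR adjusted p under 0.05, and all values of Ak4 and of the E16.5 panel are drawn open because that contrast chose Ak4. Ak4 is at -0.98, -1.14 and -1.03, while Bnip3 is at 1.55, 1.03 and 0.51.

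Bnip3, a receptor on the outer mitochondrial membrane that directs mitochondria to autophagy, is at 7:138890836-138909519 (ENSMUSG00000078566.8). It measured 30.4, 30.9 and 37.0 CPM at E13.5, 40.2, 37.7 and 42.3 at E14.5, 37.7, 49.1 and 54.3 at E15.5, 81.9, 67.6 and 52.0 at E16.5, and 75.1, 158 and 53.5 at P0. All P0 libraries lay above all E13.5 libraries, but P0 replicate 2 was far above its fellows. The log2 difference was 1.55 (SE 0.32, edgeR adjusted p = 0.00135) from E13.5, and 0.99 (adjusted p = 0.00228) without P0 replicate 2. From E15.5 it was 1.03 (SE 0.31, adjusted p = 0.0346). The call from E15.5 was lost without any of the 3 E15.5 replicates or without P0 replicate 2, where the difference was 0.43 (adjusted p = 0.182).

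Egln3, a prolyl hydroxylase that marks HIF alpha subunits and is itself raised by HIF, is at 12:54178981-54203860 (ENSMUSG00000035105.5). It measured 11.1, 14.3 and 12.5 CPM at E13.5, 15.1, 14.7 and 17.99 at E14.5, 24.0, 24.5 and 27.0 at E15.5, 62.8, 42.6 and 33.1 at E16.5, and 58.2, 85.2 and 20.3 at P0. At P0 replicate 3 lay below every E15.5 library while the other replicates lay above, so the P0 group straddled the earlier stage. From E13.5 the log2 difference was 2.11 (SE 0.39, edgeR adjusted p = 0.000661). From E15.5 it was 1.117 (SE 0.38, adjusted p = 0.0507), and the adjusted p was 0.0194 in DESeq2, 0.0438 to 0.0496 with its size factors, upper-quartile scaling or a mean of at least 1 CPM as the filter, 0.0751 with no filter and 0.166 with only the libraries of the contrast. The difference was 1.51 (adjusted p = 0.00218) without P0 replicate 3 and 0.61 (adjusted p = 0.255) without P0 replicate 2.

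Car9, a carbonic anhydrase on the cell surface that helps cells export acid, is at 4:43506966-43513729 (ENSMUSG00000028463.14) and was the least abundant of the 10. It measured 0.76, 0.49 and 1.13 CPM at E13.5, 0.37, 0.56 and 0.81 at E14.5, 1.15, 3.34 and 2.95 at E15.5, 2.27, 2.77 and 2.32 at E16.5, and 2.36, 1.01 and 5.40 at P0. All libraries lay above the level of 3 counts, and the step up lay between E14.5 and E15.5. Car9 was the 1 gene of the 10 called there, with a log2 difference of 2.08 (SE 0.57, edgeR adjusted p = 0.0199). Leaving out E14.5 replicate 1 or 2 or E15.5 replicate 2 or 3 ended the call, with adjusted p values of 0.012 to 0.0956 over the libraries left out. Among all tested genes 12.7% were called higher and 13.4% lower between these stages, and 2 of the 10 had an unadjusted p under 0.05. From E13.5 to P0 it rose by 1.87 (SE 0.57, edgeR adjusted p = 0.0138), a call lost without P0 replicate 3, where the difference was 1.10 (adjusted p = 0.0878), or without E13.5 replicate 2 (0.058).

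Vegfa, the main growth factor for blood vessels, is at 17:46016993-46032369 (ENSMUSG00000023951.17) and had closely spaced libraries until P0. It measured 99.0, 96.4 and 105.9 CPM at E13.5, 87.5, 86.6 and 82.4 at E14.5, 83.9, 87.1 and 90.9 at E15.5, 120.6, 114.6 and 97.3 at E16.5, and 59.5, 106.3 and 70.7 at P0. At P0, replicates 1 and 3 lay below all embryonic libraries, and replicate 2 lay among those of E16.5. The log2 difference from E13.5 was -0.35 (SE 0.17, edgeR adjusted p = 0.0942) and from E15.5 -0.15 (SE 0.17, adjusted p = 0.565), and neither passed the test. Without P0 replicate 2 the differences were -0.60 (adjusted p = 0.00128) and -0.45 (adjusted p = 0.0252). Without P0 replicate 1 they were -0.14 (adjusted p = 0.456) and 0.02.

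Slc2a1, the widespread glucose transporter GLUT1, is at 4:119108711-119137983 (ENSMUSG00000028645.11). It measured 103.9, 120.3 and 110.5 CPM at E13.5, 124.7, 122.6 and 114.9 at E14.5, 70.3, 117.9 and 138.5 at E15.5, 91.4, 92.0 and 101.0 at E16.5, and 67.2, 58.3 and 96.1 at P0. P0 lay below E13.5 in all 3 libraries and overlapped E16.5 through replicate 3. It was lower at P0 than at E13.5 by -0.60 on the log2 scale (SE 0.22, edgeR adjusted p = 0.0343). That call was lost with upper-quartile scaling (adjusted p = 0.0788), with a mean of at least 1 CPM as the filter (0.062), and without any one of the 3 E13.5 replicates or P0 replicates 1 and 2 (adjusted p up to 0.15). From E15.5 the difference was -0.56 (SE 0.22, adjusted p = 0.0821). It was -0.80 without E15.5 replicate 1 (adjusted p = 0.0173) or without P0 replicate 3 (0.0199), and -0.35 without E15.5 replicate 3 (0.297).

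Pdk1, a kinase that shuts pyruvate out of the mitochondrial citric acid cycle, is at 2:71873224-71903858 (ENSMUSG00000006494.11). It measured 58.3, 51.8 and 73.0 CPM at E13.5, 50.3, 51.6 and 64.5 at E14.5, 65.1, 78.6 and 87.4 at E15.5, 124.3, 93.7 and 95.8 at E16.5, and 90.1, 127.9 and 69.4 at P0. The P0 group overlapped both E13.5 and E16.5. It was higher at P0 than at E13.5 by 0.65 (SE 0.22, edgeR adjusted p = 0.0219), and the call was lost without E13.5 replicate 1 or 2 or without P0 replicate 2 (0.41, adjusted p = 0.114).

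Ldha, the lactate dehydrogenase subunit that converts pyruvate to lactate, is at 7:46841475-46855627 (ENSMUSG00000063229.15). It measured 395.6, 432.8 and 556.5 CPM at E13.5, 399.8, 418.9 and 532.7 at E14.5, 629.3, 591.1 and 694.1 at E15.5, 1424, 911.6 and 858.3 at E16.5, and 1085, 1194 and 588.7 at P0. All E16.5 libraries lay above all earlier ones, and P0 replicate 3 lay back below every E15.5 library. From E13.5 to P0 it rose by 1.05 (SE 0.26, edgeR adjusted p = 0.00467), and from E15.5 to P0 the difference was 0.58 (SE 0.26, adjusted p = 0.124), 0.83 (adjusted p = 0.0205) without P0 replicate 3 and 0.37 (adjusted p = 0.4) without P0 replicate 2.

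Pgk1, the X-linked phosphoglycerate kinase of glycolysis, is at X:106187100-106203699 (ENSMUSG00000062070.12). It measured 219.8, 251.6 and 269.6 CPM at E13.5, 263.3, 238.1 and 289.6 at E14.5, 245.7, 258.8 and 306.6 at E15.5, 525.6, 361.0 and 356.0 at E16.5, and 393.3, 450.6 and 256.8 at P0. As for Ldha, all E16.5 libraries lay above all earlier ones, and P0 replicate 3 was the lowest P0 library. That library lay within the E13.5 range for Pgk1, but above all E13.5 and E14.5 libraries for Ldha. All E15.5 libraries lay above all E14.5 libraries for Ldha, whereas those of Pgk1 overlapped. Pgk1 was higher at P0 than at E13.5 by 0.57 (SE 0.21, edgeR adjusted p = 0.0314). The call was lost without E13.5 replicate 1 or 2 or P0 replicate 1 or 2, with a difference of 0.42 and an adjusted p of 0.121 in the last case. Summed transcripts of 4 Y-linked genes were under 0.5 CPM in all 3 E16.5 libraries, E13.5 replicate 1, E15.5 replicate 1 and P0 replicate 2, and between 55.3 and 190.3 CPM in the others. The part of sex in the level of Pgk1 or of the other genes was not tested. Near-identical copies held few counted fragments, with Pgk1-rs7 at 0.22% to 0.48% of the Pgk1 count and Ldha-ps2 at 0.279% to 0.452% of the Ldha count. Fragments that fit several copies equally were not counted, so these shares cannot show how many fragments the genes lost in that way.

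In the steps between neighbouring embryonic stages few of these differences passed the test. From E13.5 to E14.5, 0 of the 10 genes were called by edgeR's quasi-likelihood test, 0 had an unadjusted p under 0.05, and DESeq2 also called 0. From E15.5 to E16.5 edgeR called 0, DESeq2 called 0, and 3 (Egln3, Ldha and Pgk1) had an unadjusted p under 0.05, with log2 differences of 0.88, 0.74 and 0.62. In that step 1.41% of all tested genes were called. The median of the 10 was 0.470 there, beside -0.001 over all tested genes, and 0.242 beside 0.030 from E14.5 to E15.5. Over all 5 stages 8 of the 10 passed the F test, Ak4 among them as a description, beside 59.1% of all tested genes. Slc2a1 (adjusted p = 0.0840) and Vegfa (0.108) did not.

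Levels can be set beside each other only per length of transcript. At E13.5 the order in mean CPM per kilobase of exon was Ldha (139.5 ± 25.4, SD, n = 3), Pgk1 (110.1 ± 11.2), Slc2a1 (31.8 ± 2.4), Vegfa (23.4 ± 1.1), Bnip3 (14.5 ± 1.6), Pdk1 (7.85 ± 1.40), Egln3 (4.74 ± 0.59), Ak4 (4.40 ± 0.38), Ankrd37 (3.57 ± 0.19) and Car9 (0.345 ± 0.139). Within 1 SD, Ldha and Pgk1 overlapped, as did Egln3 and Ak4, and the other neighbours did not. At P0 Ak4 was 9th of the 10, at 2.22 ± 0.31 CPM per kilobase, between Ankrd37 (3.09 ± 0.76) and Car9 (1.27 ± 0.98), and overlapped both within 1 SD. Egln3 had moved from just above Ak4 to 20.5 ± 12.3, and Bnip3 stood at 42.2 ± 24.5, above Slc2a1 (21.1 ± 5.6) and Vegfa (18.4 ± 5.7). Within 1 SD, Bnip3, Slc2a1, Egln3 and Vegfa overlapped at P0.

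Skeletal muscle is one of the tissues of the palate, and the level of its markers differed between libraries of one stage. The summed level of 10 skeletal muscle genes (Acta1, Ckm, Myh3, Mylpf and 6 others, all detected in every library) was 235.6 to 436.3 CPM at E13.5, 260.1 to 1229 at E14.5, and 5536, 3068 and 2036 at E15.5. At E16.5 it was 46000, 21090 and 15050 CPM, and at P0 35050, 43350 and 7302. Between P0 and E13.5, 9 of the 10 muscle genes were higher, and between P0 and E16.5 edgeR called 0 of them, 0 with an unadjusted p under 0.05. P0 replicate 3, with the lowest muscle level of its stage, was also the lowest P0 library of Bnip3, Egln3, Pdk1, Ldha and Pgk1. E16.5 replicate 1, with the highest muscle level of all, was the highest E16.5 library of those genes and of Ankrd37 and Vegfa. At E15.5 the order was the reverse for Bnip3, Egln3, Pdk1 and Pgk1, which were lowest in replicate 1, with the most muscle of that stage, and highest in replicate 3, with the least. The part of muscle in these differences was not tested. Ak4 measured 11.3, 8.66 and 11.1 CPM in the P0 libraries with muscle levels of 35050, 43350 and 7302 CPM, so it was lowest in the P0 library with the most muscle. At E16.5 too, the library with the most muscle had the least Ak4 (18.04 CPM). The order was the other way at E13.5 and E14.5, where the library with the most muscle had the most Ak4 (22.1 and 27.2 CPM). At E15.5 the library with the most muscle had the middle Ak4 value (22.4 CPM).

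**Figure D3:**
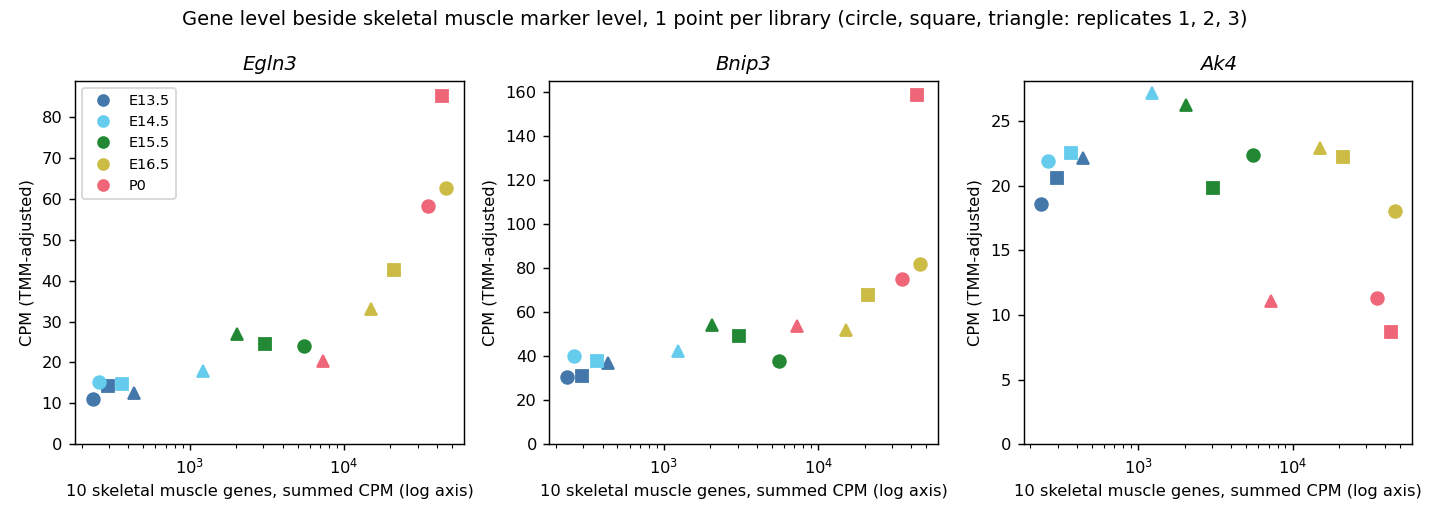
TMM-adjusted CPM of Egln3, Bnip3 and Ak4 (vertical axes, from 0) against the summed CPM of 10 skeletal muscle genes (horizontal log axes), 1 point per library, coloured by stage, with the replicate as symbol. The 5 libraries with 15050 CPM or more of muscle genes have 33.1 CPM or more of Egln3 and the others at most 27.0. The 3 P0 points of Ak4 lie at 8.66 to 11.3 CPM, lowest in the P0 library with the most muscle. At E13.5 and E14.5 Ak4 is highest in the library with the most muscle.

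Other cell types and states also moved across the stages. From E13.5 to P0, the summed markers of osteoblasts went from 1258 to 1922 up to 18240 to 35260 CPM, and those of 8 cell cycle genes from 1380 to 1535 down to 469 to 846 CPM. Markers of stratified epithelium were 923.1 to 2396 CPM at E16.5 and 987.6 to 5324 at P0, highest in P0 replicate 3, the P0 library with the highest Car9. P0 replicate 2 had more of these markers than replicate 1 (2995 against 987.6 CPM) but the lowest Car9 of its stage. At E15.5 and E16.5 replicate 3 had the most of these markers and replicate 2 the most Car9. Endothelial markers, relevant to Vegfa, were 353.1 to 469.8 CPM at E13.5 and 544.9 to 780.1 at P0. Cartilage markers were 1268 to 3383 CPM at E13.5 and 456.3 to 1357 at P0. Erythroid markers were 1478 to 5700 CPM at E13.5 and 1036 to 1488 at P0. The ranges of both overlapped between these stages, and both means were lower at P0. Immediate early genes were 185.8 to 215.3 CPM at E16.5 and 339.1 to 621.7 at P0, so all 3 P0 libraries lay above. Choroid plexus markers, of a tissue outside the palate, reached 1348 and 751 CPM in E14.5 replicates 1 and 3 and 484 and 221 CPM in P0 replicates 2 and 3. The part of these in the levels of the 10 genes was not tested.

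The genes that control the response moved in both directions. Of 10 genes of HIF and oxygen sensing, 1 was higher at P0 than at E13.5 (Epas1) and 4 were lower (Hif1a, Arnt, Arnt2 and Vhl), and their median log2 difference was -0.151. The 5 of 10 called are near the 56.6% of all tested genes called there (29.8% higher and 26.8% lower). Hif1a, the HIF-1 alpha subunit, fell from 150.2 ± 5.1 to 68.5 ± 9.95 CPM (log2 difference -1.13, SE 0.18, edgeR adjusted p = 0.000224). Epas1, the HIF-2 alpha subunit that is prominent in blood vessels, rose from 34.0 ± 5.2 to 112.2 ± 23.9 CPM (1.73, SE 0.17, adjusted p = 1.122e-05). Arnt2 fell from 200.4 ± 75.7 to 55.2 ± 7.1 CPM (-1.86, SE 0.32, adjusted p = 0.000398), with a difference of -1.93 in the single step from E14.5 to E15.5. In that earlier step 2 of the 10 were higher (Hif3a by 0.94 and Epas1 by 0.88) and 3 lower, among them Cited2 (-0.85), which competes with HIF for a coactivator, beside 12.7% and 13.4% of all tested genes. Against E15.5, 2 were higher at P0 (Egln2 by 0.54 and Epas1 by 0.54) and 3 lower, among them Hif1a (-0.69) and Hif3a (-0.77). Of all tested genes 12.2% were called higher and 10.8% lower there. The split changed with the setting. Against E13.5 it was 3 higher and 3 lower without P0 replicate 3, and 2 higher and 4 lower with DESeq2, upper-quartile scaling or a mean of at least 1 CPM as the filter. Against E15.5 it was 3 higher and 3 lower in those last settings, 2 and 1 without P0 replicate 1, 3 and 2 without P0 replicate 3, 1 and 4 without P0 replicate 2, 1 and 2 without E15.5 replicate 1 or with only the libraries of the contrast, 1 and 1 without E15.5 replicate 3, and 1 and 3 with no filter. These are levels of messenger RNA, and HIF alpha subunits are controlled chiefly as protein.

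Of 24 other hypoxia targets, 14 were higher and 4 lower at P0 than at E13.5, where 56.6% of all tested genes were called (29.8% higher and 26.8% lower). Their median was 0.860, beside 0.034 over all tested genes. The higher ones included Ndrg1, a stress-response gene (24.1 ± 5.7 to 143.8 ± 21.1 CPM, log2 difference 2.58, SE 0.19). The largest falls were of Wsb1, part of a ubiquitin ligase (302.6 ± 38.4 to 78.4 ± 16.1 CPM, -1.95, SE 0.20), and Ccng2, an atypical cyclin (83.1 ± 15.6 to 43.3 ± 12.7 CPM, -0.94, SE 0.23). Kdm3a and Ero1a were also lower, as were Ak4 and Slc2a1 among the 10 genes. The 4 of 24 called lower are a smaller share than the 26.8% of all tested genes, so nothing particular to hypoxia targets is read from them. Bnip3l, the close relative of Bnip3, had a log2 difference of -0.24 (adjusted p = 0.0999). Against E15.5, 8 were higher and 2 lower, beside 12.2% and 10.8% of all tested genes. Gbe1 (1.43), a glycogen-branching enzyme, was among the rises, and Wsb1 (-0.91) and Ero1a (-0.38) were the falls. Without E15.5 replicate 2 only 3 were called higher, without P0 replicate 2 4, and without E15.5 replicate 1 or 3 5, while 1 was called lower without any one of the E15.5 replicates or P0 replicates 1 and 3. From E14.5 to E15.5, 5 were higher (Ndrg1 by 1.88 and P4ha2, a collagen prolyl hydroxylase, by 1.50 most) and 4 lower (Ccng2 by -0.73 and Wsb1 by -0.61 most), beside 12.7% and 13.4% of all tested genes. From E16.5 to P0, 2 of the 24 were called higher and 0 lower, beside 0.352% of all tested genes called. The 2 included Ddit4, an inhibitor of mTOR signalling, higher by 0.98 (SE 0.12).

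Of 19 glycolysis genes, 9 were higher and 1 lower at P0 than at E13.5, with a median of 0.807 beside 0.034 over all tested genes. Of all tested genes 56.6% were called there (29.8% higher and 26.8% lower), so the number called is near that share. The largest rises were of Pgam2 (4.75 ± 1.33 to 311.5 ± 195.9 CPM, 6.03, SE 0.85) and Eno3 (19.3 ± 3.1 to 1064 ± 661 CPM, 5.78, SE 0.69), which are the forms of phosphoglycerate mutase and enolase typical of muscle, as Pfkm, also higher, is of phosphofructokinase. The 1 that was lower was Pfkfb3 (45.04 ± 10.3 to 23.3 ± 4.4 CPM, -0.95, SE 0.22), an enzyme that sets the rate of glycolysis and is a known hypoxia target, and without P0 replicate 2 there were 2. Gapdh, Pkm, Eno1 and Pgam1 did not pass the test. Against E15.5, 8 were higher and 0 lower (Eno3 by 3.19 and Pgam2 by 2.89 most), beside 12.2% and 10.8% of all tested genes. Only 1 was called higher without E15.5 replicate 2, without E15.5 replicate 3 or with only the libraries of the contrast. The number was 2 without P0 replicate 2, and 4 without E15.5 replicate 1 or P0 replicate 1. Without P0 replicate 2 there was also 1 lower. Between E14.5 and E15.5, 2 were higher (Pgam2 by 2.43, Eno3 by 2.19) and 2 lower (Pfkfb3 by -1.27, Pfkfb4 by -0.63), shares no larger than the 12.7% and 13.4% of all tested genes. In the next step, to E16.5, Eno3 (3.18) was the 1 called, beside 1.41% of all tested genes. Between E16.5 and P0 edgeR called 0, beside 0.352% of all tested genes, with 1 at an unadjusted p under 0.05.

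**Figure D4:**
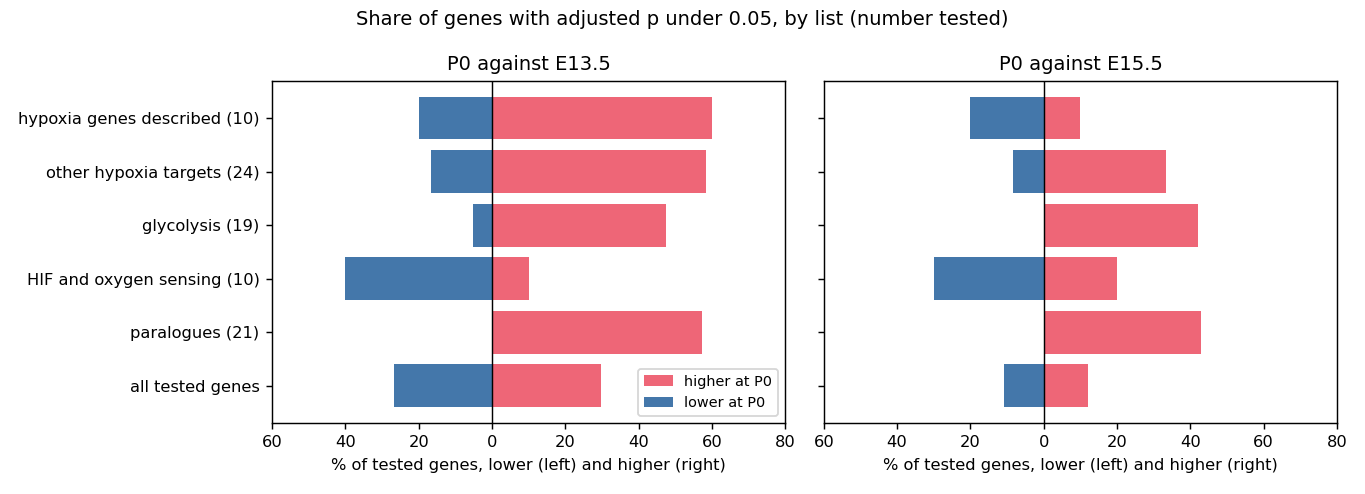
Share of the tested genes of each list (rows, with the number tested) that were called lower (blue, left of 0) or higher (red, right of 0) at P0 against E13.5 and E15.5 by an edgeR adjusted p under 0.05, with all 22151 tested genes in the last row. The top row includes Ak4, which was chosen for being low at P0. Of the other hypoxia targets 14 of 24 were higher against E13.5 and 8 of 24 against E15.5, beside 29.8% and 12.2% of all genes.

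None of the measured relatives of Ak4 was called lower at P0 than at E13.5. In a list of 21 relatives of the 10 genes, 12 were higher and 0 lower at P0 than at E13.5, and 1 was lower with DESeq2 or without E13.5 replicate 2. The number called is near the 56.6% of all tested genes called there (29.8% higher and 26.8% lower). The median was 1.076, beside 0.034 over all tested genes. Among the adenylate kinases, Ak1, the cytosolic form abundant in muscle, rose from 25.8 to 282.4 CPM (3.45, SE 0.39), and Ak3, the other matrix form, from 68.7 to 115.3 CPM (0.75, SE 0.19, edgeR adjusted p = 0.00516). Ak5 (2.43) rose too, as did Ak7 (6.12), Ak8 (4.87) and Ak9 (5.75), which are typical of ciliated cells, whose own markers went from 16.98 to 22.03 CPM at E13.5 to 192.6 to 376.7 at P0. Ak6 (-0.24, edgeR adjusted p = 0.204) did not pass the test. The largest rises of the list were Car3, a carbonic anhydrase of muscle and fat (3.92 ± 2.02 to 987.3 ± 1062 CPM, 7.98, SE 1.27), and Pdk4 (1.92 ± 0.44 to 289.6 ± 376.0 CPM, 7.23, SE 0.95), the relative of Pdk1 that fasting raises, both with a P0 spread as large as the mean. Slc2a4, the insulin-responsive glucose transporter, was higher (1.87), while Slc2a1 was lower. Against E15.5, 9 were higher and 0 lower, Pdk4 (5.04) and Car3 (3.33) most, beside 12.2% and 10.8% of all tested genes. Only 2 were higher without P0 replicate 2, 3 without E15.5 replicate 2 or 3, and 4 without E15.5 replicate 1 or with only the libraries of the contrast. From E14.5 to E15.5, 5 were higher (Car3 by 3.47 and Ak7 by 2.40 most) and 0 lower, beside 12.7% and 13.4% of all tested genes. From E15.5 to E16.5 Ak1 (1.76) was the 1 called, beside 1.41% of all tested genes.

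The genes whose pattern was most like that of Ak4, by Pearson's r of log2 CPM over the 15 libraries among 11855 genes with a mean of at least 10 CPM, were Fam98a (0.948), Dynll1 (0.943), Erlin1 (0.907), Nudcd1 (0.902) and Inpp5b (0.901). Fam98a had means of 53.1, 55.4, 54.4, 53.7 and 36.4 CPM from E13.5 to P0, and Dynll1, a dynein light chain, 235.1, 236.8, 229.7, 244.7 and 161.8 CPM. Both were level across the embryonic stages and lower at P0, like Ak4, but by a smaller ratio. Erlin1, a protein of the endoplasmic reticulum, had 39.1, 39.6, 44.7, 33.9 and 22.6 CPM. Among the 9 other hypoxia genes, the nearest was Slc2a1, with r = 0.717 at rank 541, followed by Vegfa at 0.27, while Pgk1 (-0.39), Pdk1 (-0.42), Ldha (-0.45), Egln3 (-0.54) and Bnip3 (-0.66) were negative. Ankrd37 and Car9 were below the level needed to be ranked. The 15 libraries fall into 5 stages that also differ in cell types, so these values describe likeness only.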

How the data were processed

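Wild-type mouse palates at 5 stages were measured by bulk RNA sequencing. The deposited table holds the authors' counts per gene. Per the file headers they come from featureCounts 2.0.1 and a GENCODE M18 annotation, with read pairs counted on the reverse strand and no option recorded that would add multi-mapping fragments. The submitters' processing notes name cutadapt 3.4, HISAT2 2.2.1, Bowtie2, SAMtools 1.12 and the build mm10. Symbols came from GENCODE M21 for 54165 of 54232 genes, and 97.5% had the same position there.

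Low counts were removed with filterByExpr (stage as group, minimum count 10). Libraries were scaled by TMM, edgeR's trimmed mean of log ratios, and fitted in edgeR 4.0.16 (R 4.3.3) over all 15 libraries with 1 coefficient per stage and no covariate, and tested with the quasi-likelihood F test. Adjusted p values are Benjamini-Hochberg over 22151 genes, with a threshold of 0.05. CPM are counts scaled to the TMM-adjusted library total, and log2 CPM used a prior count of 2. The alternatives were DESeq2 1.42.0, its size factors or upper-quartile scaling in edgeR, no filter, a mean of at least 1 CPM, only the libraries of a contrast, a replicate block, and leaving out each library. The procedure was tested on simulated data. The 10 genes, the lists and the tests were chosen with earlier results of these data known. From each list, the 2 largest rises and the 2 largest falls past the threshold with at least 10 CPM in the higher stage are named, as are the 5 genes most like Ak4. Other genes are named as members of a list, and some genes that the rule names are not reported here. Promoter windows are RefSeq's on GRCm38.p6.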

Additional observations from a re-analysis of the deposited data

How the results depend on the processing

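Of the 10 genes, the number called between E14.5 and E15.5 was 1, and 3 with only the libraries of the contrast. Between E16.5 and P0 it was 1, 2 with DESeq2 and 0 with only the libraries of the contrast. Between E15.5 and P0 it was 3, and 1 with no filter on low counts, with a replicate block or with only the libraries of the contrast. That 1 gene was Ak4 itself each time. Between E13.5 and P0 it was 8, and 5 with only the libraries of the contrast. Leaving out single libraries gave 0 to 1 called between E14.5 and E15.5, and 0 to 1 between E16.5 and P0 (Vegfa, not Ak4, without P0 replicate 2). Between E15.5 and P0 it gave 1 to 6 (6 without P0 replicate 3, and 1, Ak4 itself, without E15.5 replicate 2 or 3). Between E13.5 and P0 it gave 4 to 7 (4 without E13.5 replicate 2, 5 without E13.5 replicate 1), and 8 to 9 over the 5 stages. No called difference of the 10 genes changed sign: of 169 alternative fits of 13 called differences, 127 kept the call and 42 lost it. The 13 include those of Ak4 at P0 against E13.5, E15.5 and E16.5, which are descriptions, since P0 and E16.5 libraries chose the gene. Since P0 libraries chose Ak4, its calls against E13.5 and E15.5, kept in every alternative fit, raise the 127 without being a test. Of 611 alternative fits of 47 uncalled differences, 15 passed the threshold and 32 changed sign. Ak4 between E14.5 and E15.5 went from -0.07 to 0.0629 with upper-quartile scaling and to 0.0207 with a mean of at least 1 CPM, and Car9 between E15.5 and E16.5 to 0.0631 with a replicate block. The cause was not tested. Leaving out single libraries turned the sign of uncalled log2 differences, with these ranges. For E15.5 against E14.5, Ak4 -0.18 to 0.029, Vegfa -0.0051 to 0.047, Slc2a1 -0.36 to 0.076, Pgk1 -0.068 to 0.10. For P0 against E16.5, Bnip3 -0.079 to 0.80, Egln3 -0.25 to 0.64, Car9 -0.56 to 0.65, Pdk1 -0.41 to 0.058, Ldha -0.37 to 0.11, Pgk1 -0.37 to 0.034. For E16.5 against E15.5, Car9 -0.36 to 0.26, Slc2a1 -0.43 to 0.010. For P0 against E15.5, Car9 -0.57 to 0.62, Vegfa -0.45 to 0.017. For P0 against E13.5, Ankrd37 -0.31 to 0.021. For E14.5 against E13.5, Pdk1 -0.26 to 0.011, Ldha -0.17 to 0.12. Over all tested genes DESeq2 called 1000 genes between E13.5 and E14.5 where edgeR called 2, 2094 against 312 between E15.5 and E16.5, and 663 against 78 between E16.5 and P0. A replicate block gave 135 in the first of these and 35 in the last, no filter 6 and 25. With the other libraries left out of the fit there were 0 calls in these 3 contrasts, and 1809 between E15.5 and P0 against 5080. Same-numbered libraries deviated from their stage means with a mean correlation of 0.059 over 30 pairs (-0.303 to 0.548), beside -0.032 over 60 pairs with different numbers. Deviations within a stage sum to 0, so these means are tied to each other and cannot tell whether the numbers mark a batch. The labels do not say what the numbers mark, and they are not read as pairs. With the replicate block Bnip3 and Ankrd37 between E15.5 and P0 had adjusted p values of 0.0524 and 0.0602, and of 19 glycolysis genes 5 were called higher there, not 8. Beyond these, it changed no call of the 10 genes. The counts of the gene lists under each alternative were added after seeing the data. Depth limits Car9 most, at 0.37 to 5.40 CPM.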
